A study of Mus musculus with 12 samples.

Results

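Naive CD4+ T cells that lacked Nudt21 were compared with wild type cells at rest, across all genes of the deposited expression table. The comparison used 4 of the 12 libraries of the series, chosen by their labels: 2 libraries of Nudt21 knockout cells and 2 of wild type cells from the same set. All mice were C57BL/6, and the cells had been sorted as naive CD4+ T cells from spleen and lymph nodes and taken at 0 h, before any culture with antibodies against CD3 and CD28. The other 8 libraries served as a reference: 3 of wild type cells at 0 h, 3 of wild type cells after 48 h with those antibodies, and 2 of Mettl3 knockout cells at 0 h, which all belong to a separate Mettl3 set. The allele, the promoter or Cre line behind the deletion, the age of the mice and whether animals were pooled are not given in the sources used here. The title of the series names the question, which is how alternative polyadenylation and N6-methyladenosine (m6A) act together on T cell homeostasis through mTOR.

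Nudt21 encodes CFIm25, the RNA-binding subunit of the cleavage factor I complex. CFIm25 binds UGUA motifs in nascent transcripts, and its partner CFIm68 (Cpsf6) or CFIm59 (Cpsf7) recruits the machinery that cuts the transcript and adds the poly(A) tail. In many cell types its loss shifts transcripts from distal to proximal poly(A) sites and so shortens 3′ UTRs. Naive T cells are held in quiescence by tonic receptor and interleukin-7 signals, by suppressors of cytokine signalling (SOCS proteins) and by restraint of mTOR, the kinase that drives growth upon activation.

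Values are FPKM, fragment counts scaled to transcript length and library size. They are gene totals and do not show which poly(A) site was used. A gene passed when its adjusted p was under 0.05 by limma with Benjamini-Hochberg adjustment over 12511 genes, fitted on log2(FPKM + 1) with all 12 libraries sharing the estimate of spread. The 4 libraries are written WT1, WT2, KO1 and KO2, and paired values are given in that order. A call is said to be lost without a library when the adjusted p of the same fit without it was 0.05 or above. Log2 differences below are knockout minus wild type on that scale, which understates changes of genes with low values.

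The 4 libraries were close in most respects, but the knockout libraries held more transcripts of other blood cells. Summed FPKM was 345621 to 386983 across the 12 libraries, and 10716 to 11720 genes reached 1 FPKM. The log2 values of the 2 wild type libraries correlated at 0.996 and those of the 2 knockout libraries at 0.992. Cd4 (255 and 247 FPKM in wild type, 256 and 287 in knockout) and Ccr7 (214 and 217, then 213 and 230) were high in all 4. Cd44, a marker of antigen-experienced cells, was at 3.85 and 3.003 FPKM in wild type and higher, at 5.88 and 6.96, in both knockout libraries, but did not pass (limma adjusted p = 0.46). All 4 libraries had Ddx3y transcripts and almost no Xist, as male cells do. The Mettl3 set was mixed: its libraries numbered 1 and 2 had Xist and almost no Ddx3y, and those numbered 3 the reverse. With a term for male libraries in the fit, 3576 genes passed in the Nudt21 comparison in place of 3475.

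Summed FPKM of 22 B cell markers was 455 to 612 in wild type and 1018 to 1518 in knockout libraries. For 28 myeloid markers it was 90.8 to 155 and 329 to 449, for 15 CD8 T and NK cell markers 49.3 to 59.4 and 98.7 to 109, and for 15 erythroid and platelet markers 256 to 337 and 486 to 521. The groups did not overlap on any of these 4 sums, and no marker of these lists was at 0 in both libraries of a group. Lyz2 went from 14.4 and 6.47 FPKM to 38.7 and 68.2, and Cd8b1, a chain of the CD8 coreceptor, from 11.3 and 9.07 to 20.8 and 21.1 (limma adjusted p = 0.000757). Cd8a, the other chain, was at 1.74 and 0.956 against 0.956 and 1.48 and did not pass. Of the members tested, 7 of 21 B cell, 2 of 20 myeloid, 2 of 14 CD8 T and NK cell and 2 of 9 erythroid and platelet markers rose and none fell. The 2 erythroid and platelet markers that rose were Ppbp and Gp5, which is described further on among the largest rises. Of all genes, 8.73% rose and 19% fell. Members were tested if they reached 1 FPKM in 2 libraries, which the knockout libraries alone could meet. Pecam1, the 1 stromal marker tested, did not pass (log2 difference -0.08).

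The counts depend on the Mettl3 knockout libraries, which differ from each other. The one numbered 3 had a B cell sum of 2489 FPKM and a myeloid sum of 645 FPKM, against 269 and 43.6 in the one numbered 1, which widens the shared spread of such genes. With the one numbered 3 left out, the other adds nothing to the spread, and 19 B cell, 19 myeloid, 11 CD8 T and NK cell and 6 erythroid and platelet markers rose, where 15.1% of all genes rose and 22.8% fell. The part of these markers in the results below was not tested. In bulk libraries, fewer cells of a type and less RNA per cell cannot be told apart.

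Nudt21 itself (chromosome 8, 94015496 to 94037031 in mm10, minus strand) measured 18.2 and 16.9 FPKM in WT1 and WT2 but 7.57 and 6.69 FPKM in KO1 and KO2. Both knockout values lay below both wild type values, at a log2 difference of -1.19 ± 0.07 (SE; limma adjusted p = 3.27e-05). A knockout mean of 7.13 ± 0.623 FPKM (SD, n = 2) remained. The deleted exons are not given in the sources used here, and a gene total cannot show whether the remaining reads come from a shortened transcript.

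Across all genes, 3475 of 12511 passed (27.8%), with 1092 higher (8.73%) and 2383 lower (19%) in the knockout. Changes of at least 2-fold leaned the other way, with 169 genes higher (1.35%) and 74 lower (0.591%), but with a pseudocount of 0.1 FPKM in place of 1 the lean turned, with 255 higher and 284 lower. The split depended on the scaling: scaling libraries by the median ratio of their genes gave 1638 higher (13.1%) and 1576 lower (12.6%), so that the higher share of calls was 51.0% instead of 31.4%. The median over all genes was -0.05 as deposited and 0.02 under that scaling. The libraries of the 2 genotypes did not overlap for 9420 genes (75.3%). Single libraries mattered: 1617 genes passed without WT1, 1427 without WT2, 2644 without KO1 and 1338 without KO2. Without either Mettl3 knockout library 4738 or 4741 passed, of which 1895 or 1894 were higher.

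**Figure D1:**
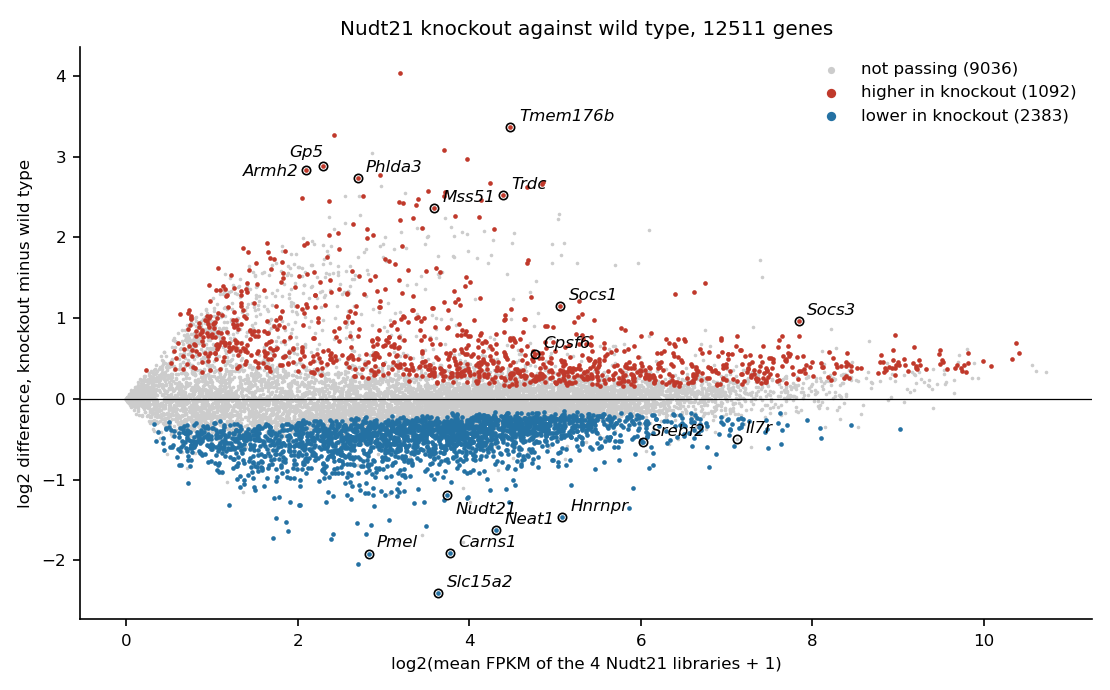
Log2 difference between Nudt21 knockout and wild type (vertical axis) against log2 of the mean FPKM + 1 of the 4 libraries (horizontal axis) for 12511 genes, with genes that passed in red (1092 higher) or blue (2383 lower). The largest differences are rises of genes of low or middle level such as Gp5, Armh2, Phlda3 and Tmem176b, while most falls are smaller than 1 on the log2 scale.

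Most factors of 3′ end processing other than Nudt21 did not pass, while 8.73% of all genes rose and 19% fell. Of 25 cleavage and polyadenylation factors tested, 6 rose and 2 fell, Nudt21 and Ppp1cb, with a median log2 difference of 0.00 against -0.05 over all genes, and without 1 Nudt21 library 2 or 3 rose. Cpsf6, the CFIm68 partner of CFIm25, went from 20.9 and 21.1 FPKM to 32.1 and 30.5. The groups did not overlap, and the log2 difference was 0.55 ± 0.09 (limma adjusted p = 0.00264). Cpsf7, the alternative partner, was at 60.2 and 63.5 against 58.6 and 56.3 FPKM and did not pass (log2 difference -0.10). The poly(A) polymerase Papolg rose from 13.2 and 14.5 to 21.6 and 18.3 FPKM, and Fip1l1, a subunit of the cleavage and polyadenylation specificity factor, from 37.2 and 38.9 to 49.3 and 51.8. Among 19 m6A writers, erasers and readers, 2 rose and 1 fell, against 8.73% and 19% of all genes, and without any 1 Nudt21 library 0 rose. The writer adaptor Rbm15 went from 12.9 and 11.99 to 20.1 and 19.7 FPKM, and the methyltransferase Mettl3 from 34.4 and 33.9 to 29.1 and 26.1 (log2 difference -0.30, limma adjusted p = 0.0351). Calls lost were those of Papolg without WT1, of Ppp1cb and Mettl3 without WT1, WT2 or KO2, and of Fip1l1 and Rbm15 without any of the 4, with limma adjusted p of 0.0525 to 0.247. Ppp1cb and Mettl3 were also lost without a 48 h library (lowest limma adjusted p 0.0506).

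Of 10 genes reported elsewhere to use poly(A) sites that depend on CFIm25, 3 fell and 1 rose, against 19% and 8.73% of all genes. Vma21, an assembly factor of the vacuolar proton pump, went from 3.97 and 4.12 to 2.39 and 2.40 FPKM, a log2 difference of -0.57 ± 0.11 (limma adjusted p = 0.00626). Dicer1, the nuclease that matures microRNAs, went from 19.9 and 20.3 to 16.7 and 14.7 FPKM. Cxxc5 rose from 2.07 and 2.09 to 5.53 and 6.26 FPKM. In each of these 3 genes the groups did not overlap, which was also so for 75.3% of all genes. The call of Dicer1 was lost without WT1, WT2 or KO2, and that of Cxxc5 without KO2, with limma adjusted p of 0.0606 to 0.193.

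The windows shown next, 30 bases near the 3′ end of the annotated transcript with the longest 3′ UTR, show the motif that CFIm25 reads as DNA, with TGTA in capitals. They come from GENCODE M21 transcripts on mm10.
Vma21, chrX:71824630-71824659, plus strand: TGTAgtcagtatatTGTAgccTGTAattta
Dicer1, chr12:104687847-104687876, minus strand: TGTAtccatgcacacagctatcactgcaga
Nudt21, chr8:94015594-94015623, minus strand: TGTAtaaagaaactggagttttgggttatg
Cpsf6, chr10:117344683-117344712, minus strand: atggtatttatctTGTAttgaaaataaaaa
The last 150 bases of the longest annotated 3′ UTR hold TGTA 4 times in Vma21, 2 times in Dicer1 and Nudt21 and 1 time in Cpsf6. Of 10379 such ends of tested genes, 66.8% hold TGTA at least 1 time and 33.8% at least 2 times. The searched letters were TGTA on the transcript strand only. A match is a description of the letters and not a measured site of cleavage or binding.

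Genes with longer annotated 3′ UTRs had slightly lower medians in the knockout. Over quintiles of 3′ UTR length, with middle lengths from 206 to 3577 bases, the median log2 difference went from 0.00 through -0.02, -0.06 and -0.09 to -0.10. The share of genes that fell went from 17.1% in the shortest quintile to 22.9% in the longest, and the share that rose from 10.8% to 6.44%. The Mettl3 knockout had a slope of the same sign, from 0.10 to 0.00. Over quintiles of TGTA matches per kilobase of 3′ UTR the Nudt21 medians likewise went from 0.00 to -0.10, with -0.02 to -0.04 in KO1 and 0.00 to -0.15 in KO2. Transcript GC content moved with the same values: the medians went from -0.12 in the lowest to 0.02 in the highest quintile, and from -0.19 to 0.04 in KO2 against -0.04 to -0.01 in KO1. The part of GC content in the 3′ UTR trend was not tested.

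The largest rises included genes that were nearly silent in wild type cells, such as Gp5 and Armh2, and genes at a few FPKM, such as Tmem176b and Nkg7. The 12 described here leave out predicted genes, pseudogenes and antigen receptor segments, some of which rose more and are given further on. Tmem176b (chromosome 6, 48833818 to 48841496, minus strand), a membrane cation channel protein, went from 3.36 and 2.58 FPKM to 37.7 and 41.6, a log2 difference of 3.36 ± 0.32 (limma adjusted p = 0.000223). Its neighbour Tmem176a, which lies on the other strand and overlaps it, went from 1.76 and 1.75 to 21.9 and 22.9 FPKM. Strand use in the counting is not given, so reads of this overlapping pair cannot be told apart.

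Phlda3 (chromosome 1, 135766119 to 135769136, plus strand), a p53 target that restrains Akt, went from 0.658 and 0.708 to 11.5 and 9.05 FPKM. The log2 difference was 2.74 ± 0.17 (limma adjusted p = 3.27e-05), and the knockout libraries stood 15.1-fold above wild type in mean FPKM. Gp5 (chromosome 16, 30307685 to 30310779, minus strand), a platelet glycoprotein, went from 0.194 and 0.134 to 7.85 and 7.36 FPKM, a log2 difference of 2.89 ± 0.14 (limma adjusted p = 1e-05). Other platelet genes varied. Itga2b, the platelet integrin chain, went from 1.53 and 1.40 to 5.42 and 5.56 FPKM without passing (limma adjusted p = 0.0555), and Ppbp, a platelet chemokine, rose from 0.413 and 0.336 to 2.41 and 1.06 (0.0269). Gp9 was at 0.671 and 0.782 FPKM in the knockout libraries, Gp1bb at 0.236 and 0.178, and Gp6 at 0.0382 and 0.0503. Gp1ba was at 0.856 and 1.03 FPKM in wild type and 1.02 and 0.916 in knockout.

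Armh2 (chromosome 13, 24741232 to 24746592, plus strand) went from 0.0486 and 0.0511 to 6.61 and 6.36 FPKM. Drc1, a component of ciliary axonemes, rose from 2.49 and 2.09 to 19.8 and 17.5, and Psrc1, a spindle protein that p53 induces, from 0.264 and 0.229 to 6.76 and 5.30. Mss51 went from 3.01 and 2.83 to 20.4 and 17.9 FPKM. In all these genes the knockout libraries lay above the wild type libraries, and the calls held when any 1 library of the 12 was left out.

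Another 4 of the 12 named rises are genes of cytotoxic, innate-like or interferon-exposed cells, and these calls were less stable. Nkg7 went from 8.73 and 5.19 to 52.1 and 45.7 FPKM (limma adjusted p = 0.03), Plac8 from 8.35 and 5.57 to 49.4 and 47.8, Gzma from 2.37 and 1.55 to 14.0 and 15.5 (limma adjusted p = 0.047), and Ifitm3 from 5.26 and 2.79 to 21.9 and 23.1. The call of Nkg7 was lost without any of the 4 Nudt21 libraries, that of Plac8 without WT2 or KO2, that of Ifitm3 without WT2, KO1 or KO2, and that of Gzma in 10 of the 12 fits without 1 library, with limma adjusted p of 0.0513 to 0.192 over these genes. Nkg7, Plac8 and Ifitm3 moved with the CD8 T and NK cell and myeloid sums given above. Gzma is itself on the CD8 T and NK cell list, so its rise is part of that sum. The part of those cells in these rises was not tested.

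**Figure D2:**
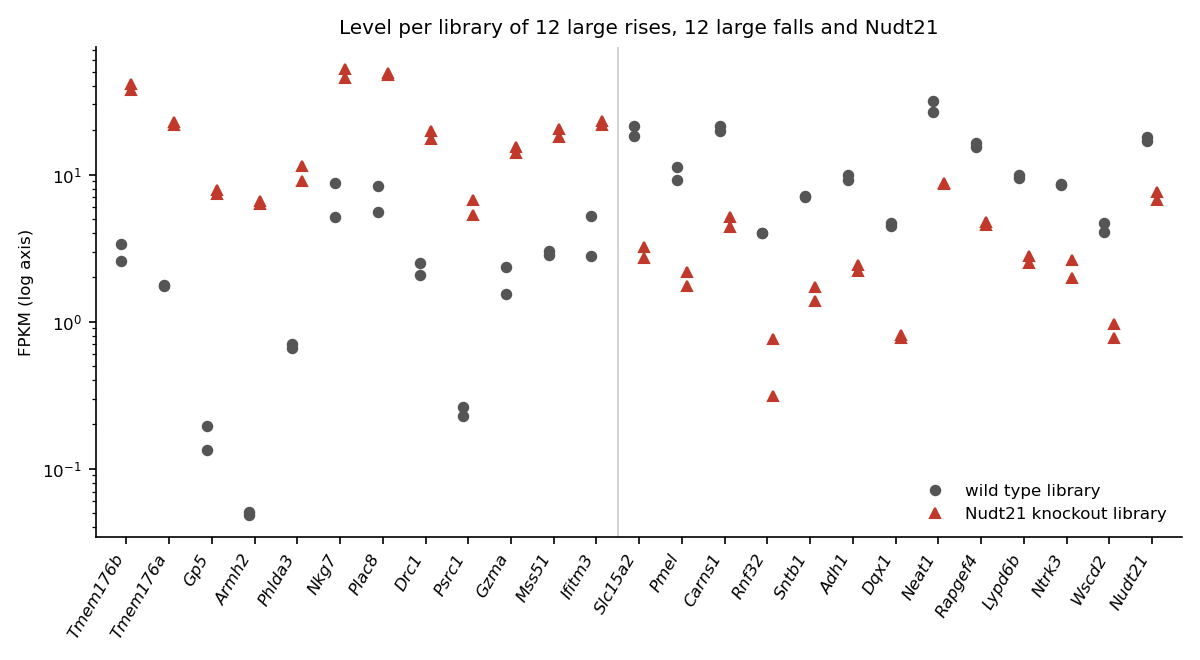
FPKM on a log axis in each wild type (circles) and Nudt21 knockout (triangles) library for 12 large rises, 12 large falls and Nudt21, leaving out predicted genes, pseudogenes and antigen receptor segments. The 2 libraries of a genotype lie close together and the genotypes do not overlap for any gene shown; Armh2 spans the widest range, from 0.0486 to 6.61 FPKM.

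The largest falls were of genes that wild type naive cells express at moderate levels. Carns1 (chromosome 19, 4164324 to 4175479, minus strand), which makes carnosine, went from 19.9 and 21.3 FPKM to 4.39 and 5.16, a log2 difference of -1.91 ± 0.20 (limma adjusted p = 0.000349). Pmel, a fibril protein of pigment cells, went from 9.2004 and 11.2 to 2.17 and 1.75 FPKM. Slc15a2, a peptide transporter, had the largest fall, from 18.4 and 21.5 to 2.70 and 3.20 FPKM (log2 difference -2.40 ± 0.63, limma adjusted p = 0.0208), but its call was lost without any 1 of the 4 Nudt21 libraries, with limma adjusted p of 0.0777 to 0.106. In the Mettl3 set it ranged from 1.05 to 12.2 FPKM at 0 h, so its spread in the shared fit was wide.

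Neat1, the long noncoding RNA that scaffolds paraspeckles (chromosome 19, 5824708 to 5845478, minus strand), went from 26.6 and 31.6 to 8.82 and 8.63 FPKM, a log2 difference of -1.63 ± 0.15 (limma adjusted p = 0.000202). CFIm is known to govern the early poly(A) site of this RNA, but the gene total does not separate its isoforms. Hnrnpr, an RNA-binding protein chosen for mention after its values were seen, went from 47.3 and 50.2 to 17.6 and 16.5 FPKM. Its log2 difference was -1.46 ± 0.08 (limma adjusted p = 1.64e-05), and in the Mettl3 set the means were 47.6 FPKM in both genotypes. Among the remaining large falls, Rapgef4, an exchange factor for Rap GTPases, went from 16.3 and 15.5 to 4.78 and 4.53 FPKM, and Adh1, an alcohol dehydrogenase, from 9.91 and 9.18 to 2.22 and 2.41. Rnf32, Sntb1, Dqx1, Lypd6b, Ntrk3 and Wscd2 had log2 differences from -1.72 to -1.53, and none of these calls was lost when 1 library was left out.

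Some genes with almost no expression in wild type were switched on in the knockout, and 7 of these 17 began close behind an active gene. Of 18764 genes under 0.2 FPKM in both wild type libraries, 17 reached 1 FPKM in both knockout libraries, and 1, Gm6213, went the other way. These 17 were 8 protein-coding genes, 4 long noncoding RNAs and 5 antigen receptor segments. The segments were of immunoglobulin (Ighv1-66, Igkv1-122 and Igkv2-112) and of gamma and delta chains (Tcrg-V3 and Trdv4). The part of B cells and gamma-delta cells in them was not tested. Ighv1-66 and Igkv2-112 met the rule but did not pass in the Nudt21 comparison (limma adjusted p = 0.247 and 0.228). None of the 17 met the rule in the Mettl3 set, where 8 others did, but some of them rose and passed there. Olfml3 went from 0.210, 0.241 and 0.166 FPKM to 2.35 and 0.924 (limma adjusted p = 0.0031; difference between knockouts -0.09, 0.849). Tnfsf4 (limma adjusted p = 0.00216), Igkv1-122 (0.00375), Tcrg-V3 (0.0282) and Tg (0.0473) also rose there. The nearest expressed gene (at least 5 FPKM in wild type) on the same strand was taken as the neighbour. Genes that overlapped an expressed gene on their strand were left out. Among silent genes whose upstream neighbour ended within 10 kb, 7 of 564 switched on (1.24%), against 2 of 1623 (0.123%) at 10 to 50 kb and 8 of 16311 (0.049%) beyond. With the neighbour downstream within 10 kb it was 1 of 615 (0.163%), and in the Mettl3 knockout, with the neighbour upstream within 10 kb, 0 of 523. These rules were chosen after the values were seen, so the shares are given without a test.

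The pairs were close together. Gm34829 (chromosome 9, 77992599 to 78002261, plus strand), a long noncoding RNA, begins 8.08 kb past the end of Elovl5, a fatty acid elongase. It went from 0.0250 and 0.0794 FPKM to 15.4 and 17.1, the largest difference of any gene tested (log2 difference 4.04 ± 0.10, limma adjusted p = 4.36e-08). Elovl5 stayed at 57.3 and 52.7 against 55.3 and 52.0 FPKM. Gm39375 lies farther along the same path, 30.5 kb past Elovl5, and went from 0.0165 and 0 FPKM to 8.70 and 8.77.

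Gp5 begins 1.64 kb past the end of Atp13a3, an ATPase of endosomes that was at 19.7 and 21.004 FPKM in wild type and 27.7 and 22.9 in knockout. Armh2 begins 7.42 kb past Ripor2 (139 and 136 FPKM, then 157 and 148), an inhibitor of RhoA. Neither upstream gene passed. Of the other upstream genes, Hipk1 rose (33.5 and 35.3 FPKM, then 48.2 and 49.4, lost without WT1, WT2 or KO2 at limma adjusted p of 0.0541 to 0.0778) and Srsf1, a splicing factor, fell (72.0 and 76.7, then 54.1 and 49.8). The other pairs were Cd59b after Fbxo3 (6.61 kb), Olfml3 after Hipk1 (1.81 kb), Gm15892 after Srsf1 (5.31 kb) and Gm19325 after Slc25a36 (7.65 kb). Mss51, which was not silent, begins 2.46 kb past Ppp3cb. Of the 17 genes, Tnfsf4, which encodes the ligand of the costimulatory receptor OX40, had no such neighbour, with the nearest 357 kb away, and went from 0.113 and 0.0667 to 3.65 and 2.40 FPKM.

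Among all tested genes, which need not be silent, an upstream neighbour within 10 kb did not set genes apart. Rises of at least 2-fold were made by 1.64% of genes with the neighbour within 10 kb, 1.62% at 10 to 50 kb and 1.19% beyond. The pattern is therefore described for silent genes only.

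**Figure D3:**
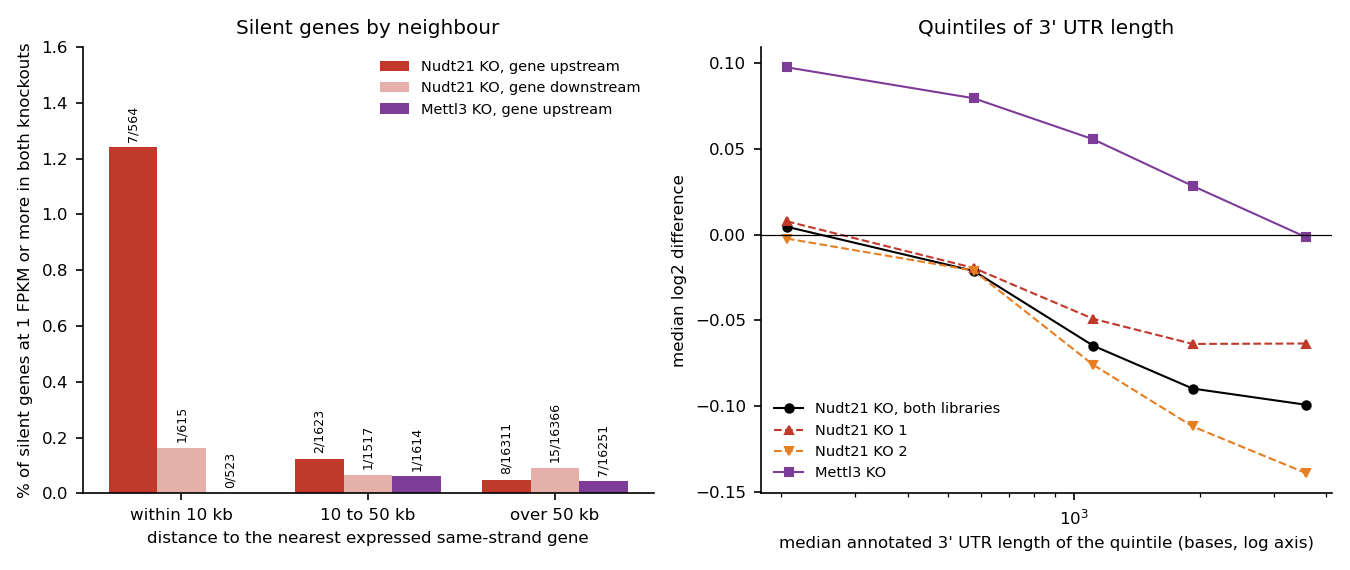
Left, percent of silent genes that reached 1 FPKM in both knockout libraries, by distance to the nearest expressed gene on the same strand, with counts above the bars; the tallest bar is 7 of 564 genes with the expressed gene upstream within 10 kb in the Nudt21 knockout. Right, median log2 difference by quintile of annotated 3′ UTR length (log axis), falling from 0.00 to -0.10 for both Nudt21 knockout libraries together and from 0.10 to 0.00 for the Mettl3 knockout.

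More p53 targets rose than fell. Of 29 tested, 8 rose and 3 fell, with a median of 0.14 against -0.05 over all genes. Of all genes, 8.73% rose and 19% fell. Without WT2, 2 rose, and without WT1, KO1 or KO2 it was 4, 5 and 3. Cdkn1a, the cell cycle inhibitor p21, went from 0.347 and 0.256 to 2.14 and 2.17 FPKM, a log2 difference of 1.28 ± 0.28 (limma adjusted p = 0.00991). Bax, which permeabilises mitochondria in apoptosis, went from 111 and 104 to 156 and 161 FPKM (log2 difference 0.56 ± 0.10). Ccng1 rose from 32.2 and 32.2 to 46.2 and 41.1 FPKM, and Pmaip1, Gtse1, Btg2 and Ppm1d also rose. Sesn1 fell from 37.9 and 34.4 to 22.7 and 25.7 FPKM, and Rrm2b, which supplies nucleotides for repair, from 6.90 and 8.10 to 5.32 and 4.44. The calls of Cdkn1a and Rrm2b were lost without WT2 or KO2, at limma adjusted p of 0.0606 to 0.074, that of Sesn1 without WT1 (0.0627), and those of Ccng1, Btg2, Ppm1d, Gtse1 and Pmaip1 without at least 2 of the 4 libraries.

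The promoter of Cdkn1a is shown because it is the 1 promoter among 7 risen targets with a RefSeq entry that held the p53 consensus, a pair of 10-base half-sites up to 13 bases apart, searched over both strands. The consensus occurs in 0.0731% of all 32851 mouse promoters of that length, 250 bases before to 50 after the start. The capitals mark the match with its spacer, and the sequence is from RefSeq on GRCm38.p6.
Cdkn1a, chr17:29090729-29091028, plus strand: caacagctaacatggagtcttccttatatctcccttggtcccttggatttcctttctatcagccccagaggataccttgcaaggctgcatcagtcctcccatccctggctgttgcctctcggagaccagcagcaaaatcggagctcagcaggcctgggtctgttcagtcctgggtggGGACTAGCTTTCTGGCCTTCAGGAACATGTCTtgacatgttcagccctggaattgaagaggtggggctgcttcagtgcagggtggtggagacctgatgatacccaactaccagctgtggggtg

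Of 34 apoptosis regulators, 7 rose and 1 fell (median 0.13), against 8.73% and 19% of all genes. Without 1 Nudt21 library 2 or 3 rose, and without the Mettl3 knockout library numbered 3 it was 12, where 15.1% of all genes rose. Bcl2, which blocks the mitochondrial pathway, went from 25.5 and 23.5 to 36.9 and 37.8 FPKM (log2 difference 0.59 ± 0.10, limma adjusted p = 0.00273). Xiap, an inhibitor of caspases, was the 1 that fell, from 9.92 and 10.5 to 6.46 and 5.16 FPKM (log2 difference -0.72 ± 0.10).

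Genes of cytokine signalling rose more often than they fell, while 8.73% of all genes rose and 19% fell. Of 40 members, 10 rose and 2 fell, with a median of 0.12, and without WT2 or KO2 6 rose. Socs1 (chromosome 16, 10782240 to 10785536, minus strand), which shuts down JAK kinases, went from 19.2 and 20.2 to 45.1 and 44.8 FPKM, a log2 difference of 1.15 ± 0.11 (limma adjusted p = 0.000213). Socs3 went from 132 and 179 to 298 and 305 FPKM (0.96 ± 0.21 on the log2 scale), and Cish, a further member of that family, from 9.25 and 6.95 to 13.7 and 13.3. The groups did not overlap for any of the 3, which was also so for 75.3% of all genes. The call of Socs3 was lost without WT1 or KO2, at limma adjusted p of 0.0807 and 0.0648.

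The kinase Pim1 (101.3 and 111, then 151 and 150 FPKM), the common gamma chain Il2rg (336 and 318, then 417 and 438) and Jak3 (107 and 108, then 148 and 142) rose as well. Il6st, the shared receptor of interleukin-6 type cytokines, fell from 43.1 and 46.6 to 33.6 and 30.8 FPKM, and the STAT inhibitor Pias1 from 13.7 and 14.2 to 10.1 and 10.007. The call of Il6st was lost without WT2 or KO2, at limma adjusted p of 0.0873 and 0.09. Il7r, the receptor of the naive cell survival cytokine, was at 166 and 159 FPKM in wild type and 111 and 119 in knockout. Its groups did not overlap, but it did not pass (log2 difference -0.50 ± 0.26, limma adjusted p = 0.186).

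More interferon-stimulated genes rose than fell. Of 50 tested, 12 rose and none fell, against 8.73% and 19% of all genes, and the median was 0.37. Fitting the 4 Nudt21 libraries alone gave 28 higher and 1 lower, where 15.9% of all genes were higher and 22.6% lower, and leaving out 1 Nudt21 library of the 12 gave 4 or 5 higher. Oas1a, an antiviral nucleotide synthetase, went from 9.11 and 9.09 to 19.8 and 16.8 FPKM (log2 difference 0.93 ± 0.15, limma adjusted p = 0.00284), and Oasl1 from 9.79 and 9.49 to 18.1 and 16.8. Gvin1 went from 10.3 and 11.46 to 44.1 and 33.0 FPKM and Tgtp1 from 59.2 and 54.8 to 154 and 156. Oas1a, Gvin1, Tgtp1 and Ifit3b have close copies in the genome, so their counts are uncertain. The call of Gvin1 was lost without WT1 (limma adjusted p = 0.0512), and that of Tgtp1 without WT2 or KO2 (0.0558 and 0.0546).

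Interferon-stimulated response elements were searched as GAAA, any 2 bases and GAAA again on both strands of the RefSeq promoters. They were found in 7 of 9 risen genes with an entry, in 13 of 28 genes of the list that did not pass, and in 3.44% of all promoters. The promoters of Ifitm3, which went from 5.26 and 2.79 to 21.9 and 23.1 FPKM, and of Rsad2, an antiviral enzyme that went from 1.72 and 2.68 to 6.15 and 4.22, are shown with the matches in capitals, since one carries the letters on the sense strand and the other on the antisense strand. The call of Rsad2 was lost without WT1, WT2 or KO1, at limma adjusted p of 0.0501 to 0.16. The sequences are from RefSeq on GRCm38.p6.
Ifitm3, chr7:141010695-141010994, minus strand: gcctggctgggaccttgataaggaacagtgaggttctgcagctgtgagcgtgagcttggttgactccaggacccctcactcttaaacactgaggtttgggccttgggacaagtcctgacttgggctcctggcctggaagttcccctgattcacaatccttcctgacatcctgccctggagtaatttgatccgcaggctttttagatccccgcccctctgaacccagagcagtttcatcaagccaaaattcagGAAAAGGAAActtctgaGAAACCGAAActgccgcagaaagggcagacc
Rsad2, chr12:26456403-26456702, minus strand: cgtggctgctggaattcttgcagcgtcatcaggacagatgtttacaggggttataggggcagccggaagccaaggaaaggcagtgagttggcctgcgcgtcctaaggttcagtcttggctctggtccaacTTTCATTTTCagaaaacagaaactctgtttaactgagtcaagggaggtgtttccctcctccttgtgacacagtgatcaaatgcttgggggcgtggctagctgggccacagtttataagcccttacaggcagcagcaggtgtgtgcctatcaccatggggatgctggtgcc

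The mTOR pathway showed no common direction. Of 61 components, 6 rose and 13 fell, against 8.73% and 19% of all genes, and the median was -0.06. Under median-ratio scaling the counts turned to 13 higher and 7 lower with a median of 0.04, and without WT1, WT2 or KO2 5 fell. Mtor was at 11.03 and 11.3 FPKM against 11.2 and 10.1, and overlapped between the groups. Its inhibitor Tsc1 was at 11.7 and 12.1 against 9.60 and 9.36 FPKM (log2 difference -0.30 ± 0.08, limma adjusted p = 0.0233, lost without any of the 4 libraries at 0.0616 to 0.13), and Tsc2 at 19.6 and 19.6 against 20.6 and 21.3, which did not pass.

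Among members that passed, Castor2, an arginine sensor, fell from 3.78 and 4.12 to 2.22 and 1.94 FPKM, the Rag GTPase Rragb from 3.25 and 2.68 to 1.61 and 1.496, and Rhebl1, a relative of the mTOR activator Rheb, from 9.59 and 9.14 to 6.07 and 5.37. Eif4b, a translation factor downstream of mTOR, rose from 128 and 123 to 179 and 187 FPKM (log2 difference 0.54 ± 0.07, limma adjusted p = 0.00103), and Rragd, a further Rag GTPase, from 1.13 and 1.49 to 3.68 and 3.56, a call lost without WT1 or KO2 (0.0803 and 0.065). The mTOR target Eif4ebp1 was at 2.49 and 2.57 against 3.11 and 3.52 FPKM and did not pass.

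Genes of cholesterol synthesis fell. Of 32 genes of cholesterol and fatty acid synthesis, 17 fell and 1 rose, with a median of -0.47 against -0.05 over all genes, while 19% of all genes fell. With either other scaling 10 fell and 1 rose, and leaving out 1 Nudt21 library left 6 to 13 lower, the fewest without WT1. Srebf2, the transcription factor that turns this pathway on, went from 79.9 and 72.0 to 49.2 and 54.8 FPKM (log2 difference -0.54 ± 0.08, limma adjusted p = 0.00167). Sqle, which makes squalene epoxide, went from 9.51 and 6.61 to 2.71 and 3.51. The kinases of the mevalonate branch, Mvk (9.95 and 7.88, then 4.11 and 4.83) and Pmvk (10.3 and 9.75, then 6.05 and 6.31), also lay below the wild type in both knockout libraries. Scd1, which desaturates fatty acids, was the 1 that rose, from 1.96 and 1.32 to 4.16 and 6.94 FPKM. The call of Scd1 was lost without WT1, WT2 or KO2 (limma adjusted p of 0.0721 to 0.19). The sterol element, searched as TCAC, any 1 base and CCAC on both strands, was in 0 of 12 promoters of the genes that fell and in 1.24% of all promoters.

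The glucose transporters fell slightly. Slc2a1 went from 17.5 and 16.2 to 12.2 and 14.2 FPKM and Slc2a3 from 13.9 and 12.1 to 9.92 and 10.1, within a glycolysis list in which 4 of 24 fell and 1 rose (median -0.02), against 19% and 8.73% of all genes. In the stress response list 5 of 36 rose and 3 fell (median 0.07). Shmt2, a serine enzyme of mitochondria, went from 66.9 and 65.3 to 53.7 and 52.4 FPKM. None of 13 mitochondrially encoded genes passed. The calls of Slc2a1, Slc2a3 and Shmt2 were each lost without WT1 and 1 or 2 more of the libraries, at limma adjusted p of 0.0585 to 0.171.

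More T cell lineage genes rose than fell, while 8.73% of all genes rose and 19% fell. Of 26 T cell lineage genes, 9 rose and 1 fell (median 0.13), although quantile scaling gave 3 higher and 3 lower, where 8.1% of all genes were higher and 13.8% lower. Without WT2 or KO2 3 rose. Cd3g went from 280 and 264 to 389 and 416 FPKM (log2 difference 0.56 ± 0.09, limma adjusted p = 0.00285), Cd3d from 160 and 147 to 212 and 222, and the kinase Lck from 440 and 421 to 572 and 615. Themis, a signalling protein of developing T cells, fell from 22.9 and 23.1 to 18.8 and 14.3 FPKM, a call lost without WT1, WT2 or KO2 (limma adjusted p of 0.0554 to 0.0658).

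Genes of naive and quiescent cells did not move one way. Of 30 tested, 4 rose and 6 fell, against 8.73% and 19% of all genes, with a median of -0.01. Without WT2 or KO2, 2 rose and 1 fell. Foxo1, a transcription factor that sustains Il7r, went from 43.1 and 43.8 to 31.2 and 29.98 FPKM (log2 difference -0.49 ± 0.08, limma adjusted p = 0.00232). S1pr1, the receptor for exit from lymph nodes, went from 124 and 138 to 89.2 and 83.6, and Klf6 from 39.1 and 42.6 to 23.6 and 21.5. Id3, which restrains E proteins, rose from 27.7 and 28.5 to 48.6 and 49.8 FPKM. The calls of S1pr1 and Klf6 were lost without WT2 or KO2, at limma adjusted p of 0.0618 to 0.0683.

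Of 40 activation genes, 11 rose and 3 fell, against 8.73% and 19% of all genes, and the median was 0.47. Without 1 Nudt21 library 3 or 4 rose, and without the Mettl3 knockout library numbered 3 it was 22, where 15.1% of all genes rose. Tnfrsf18, the receptor GITR, went from 36.8 and 38.3 to 69.7 and 69.8 FPKM (log2 difference 0.87 ± 0.07, limma adjusted p = 0.000116). Gadd45b went from 23.0 and 22.1 to 56.7 and 50.2, and Nfkbia, the inhibitor and target of NF-kappaB, from 129 and 136 to 203 and 214. Slc7a5, the leucine transporter that activated cells need, fell from 26.2 and 24.6 to 14.7 and 14.1 FPKM (log2 difference -0.78 ± 0.10), and the costimulatory receptor Icos from 15.1 and 15.7 to 9.44 and 8.10. The call of Icos was lost without any of the 4 libraries (0.0533 to 0.153). After 48 h of stimulation in wild type cells of the Mettl3 set, Slc7a5 and Icos were higher than at 0 h, at log2 differences of 1.89 and 2.19. Immediate-early genes gave 10 of 29 higher and 2 lower (median 0.34), or 2 to 6 higher without 1 Nudt21 library, among them Ier2 from 155 and 156 to 205 and 225 FPKM and Jund from 354 and 370 to 489 and 566.

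Few cell cycle genes passed in the fit of all 12 libraries. Of 54 tested, 2 rose and 1 fell, against 8.73% and 19% of all genes, with a median of 0.15. Fitting the 4 Nudt21 libraries alone gave 21 higher and 3 lower, where 15.9% of all genes were higher and 22.6% lower. Cdt1, which licenses replication origins, went from 26.4 and 24.0 to 29.0 and 31.7 FPKM, E2f2 from 8.202 and 8.498 to 10.5 and 10.4, and Pcna, the replication clamp, from 112 and 103 to 91.3 and 84.2. The calls of these 3 were lost without 2 to 4 of the Nudt21 libraries, at limma adjusted p of up to 0.171. Of 32 effector, memory and helper genes, 3 rose and none fell (median 0.76), or 22 and 1 with the 4 Nudt21 libraries alone. Ccr9, a gut homing receptor, was the member with the smallest p and went from 2.12 and 1.81 to 7.48 and 5.51 FPKM. Of 18 regulatory T cell genes, 4 rose and none fell (median 0.39), or 2 and none without any 1 Nudt21 library, while Foxp3, which defines that lineage, was at 4.88 and 5.06 FPKM against 5.09 and 4.81.

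Gamma-delta T cell transcripts were higher in the knockout libraries. Of 11 gamma-delta and type 17 genes tested, 9 rose and none fell, with a median of 2.52, and without WT2 5 rose. Of all genes, 8.73% rose and 19% fell. Members were tested if they reached 1 FPKM in 2 libraries, which the knockout libraries alone could meet. The summed FPKM of the 20 listed genes in the table was 21.9 to 27.7 in wild type and 179 to 204 in knockout libraries. In the Mettl3 set at 0 h it was 18.6 to 24.5 in wild type, 32.9 in the knockout library numbered 1 and 139 in that numbered 3. The difference between the knockouts passed toward higher in the Nudt21 knockout for 1 of the 11. Trdc, the delta chain constant segment, went from 5.69 and 4.78 to 38.3 and 31.3 FPKM (log2 difference 2.52 ± 0.43, limma adjusted p = 0.00316), and Tcrg-C1, Tcrg-C2 and Tcrg-C4, the gamma chain constant segments, had log2 differences of 2.40, 2.68 and 2.56, which did not pass without WT2 (limma adjusted p of 0.0541 to 0.0627). These 3 segments are alike in sequence, so reads may be shared between them.

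The scavenger receptor genes of gamma-delta cells followed, with Cd163l1 from 0.624 and 0.302 to 4.85 and 3.03 FPKM and 5830411N06Rik from 1.10 and 0.890 to 12.8 and 8.42. Tmem176a and Tmem176b are on this list too, so their rises moved with it. Other genes of gamma-delta and interleukin-17 producing cells did not reach 1 FPKM: in the knockout libraries Sox13 was at 0.723 and 0.610 FPKM, Zbtb16 at 0.0325 and 0.0904, and Il17a at 0.210 and 0. The part of gamma-delta cells among the sorted cells was not tested.

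**Figure D4:**
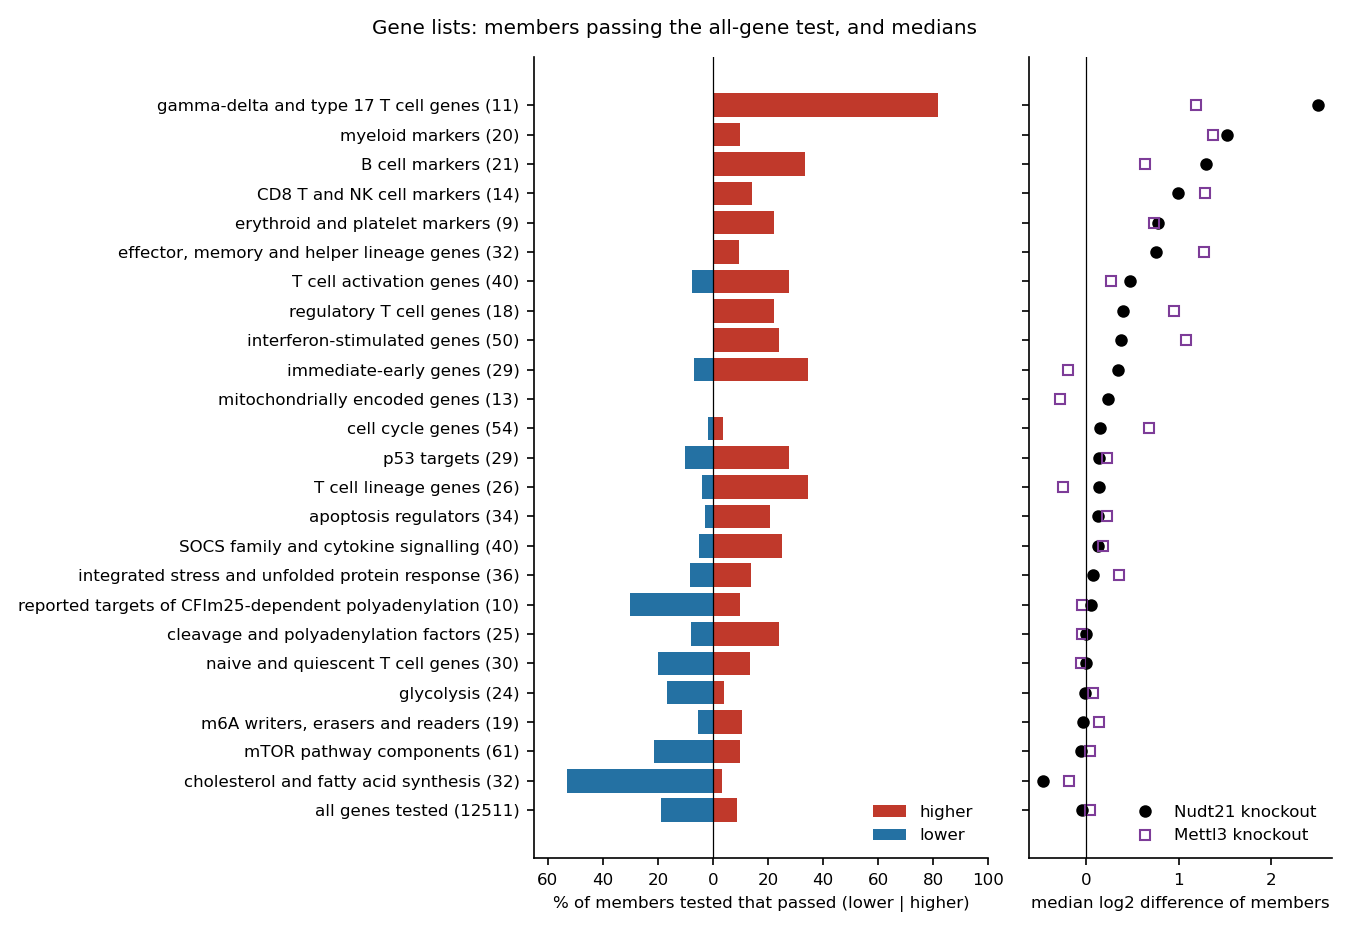
Left, percent of the tested members of each gene list that were higher (red) or lower (blue) in the Nudt21 knockout, with the number tested in brackets. Right, the median log2 difference of each list in the Nudt21 (filled circles) and Mettl3 (open squares) knockouts. Cholesterol and fatty acid synthesis has the lowest Nudt21 median, -0.47, and gamma-delta genes the highest, 2.52.

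The last question was which changes the Nudt21 knockout had apart from the Mettl3 knockout, which removes the m6A methyltransferase and has its own wild type libraries. The difference between the 2 knockout effects passed for 3164 of 12511 genes (25.3%). Of the 169 genes with a rise of at least 2-fold, 39 also rose by that much in the Mettl3 knockout, which is 23.1% of these and 13.7% of the 285 Mettl3 genes. Of the 169, 5 fell and passed there, none of them by 2-fold or more on the log2(FPKM + 1) scale. Of the 74 with a fall of at least 2-fold, 3 did so in both, out of 55 in the Mettl3 knockout. Of all genes, 2.28% rose and 0.44% fell by that much in the Mettl3 knockout. The difference itself passed for 68 of the 169 (40.2%) and 52 of the 74 (70.3%). Over all genes the log2 differences of the knockouts correlated at r = 0.48 (Spearman 0.27), a description across genes, which are not independent replicates.

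Socs1 also rose in the Mettl3 knockout, from a mean of 17.2 to 39.4 FPKM, and the difference between the knockouts was -0.01 ± 0.14 on the log2 scale (limma adjusted p = 0.97). Phlda3 rose in both, from 0.433 to 4.45 FPKM in the Mettl3 set, and its rise was larger in the Nudt21 knockout by 0.80 ± 0.23 on the log2 scale (limma adjusted p = 0.029). Of all genes, 16.8% rose and 12% fell in the Mettl3 knockout, and the difference was in favour of the Nudt21 knockout for 7.44% and of the Mettl3 knockout for 17.8%. Of the interferon-stimulated genes, 42 of 50 rose in the Mettl3 knockout with a median of 1.08, and for 16 the Nudt21 effect was smaller. Of T cell lineage genes, 14 were lower and none higher in the Mettl3 knockout and 16 of 26 differed toward higher in the Nudt21 knockout, whose own median was 0.13 as deposited but -0.02 under quantile scaling. Immediate-early genes had 10 lower and 1 higher in the Mettl3 knockout and 12 of 29 differing toward higher. Cholesterol and fatty acid synthesis genes fell there too, with 11 of 32 lower, none higher and a median of -0.18. For 4 of them the difference was toward lower in the Nudt21 knockout. Of the 29 p53 targets, 8 were higher and 3 lower in the Mettl3 knockout (median 0.22), and 3 differed toward higher and 1 toward lower.

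Single genes that differed most are in the scatter of both knockouts. Gp5 and Armh2 were at 0.214 and 0.104 FPKM on average in the Mettl3 knockout and did not pass there. Mss51 was at a mean of 4.805 FPKM in the Mettl3 wild type and 6.08 in the knockout. Klc3, a kinesin light chain, went from 7.18 and 6.91 to 22.9 and 21.1 FPKM in the Nudt21 set and from a mean of 4.001 to 2.53 in the Mettl3 set, and the transcription factor Sp6 from 2.54 and 1.71 to 8.46 and 8.08 against 2.16 to 0.654.

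Carns1, which fell in the Nudt21 knockout, rose in the Mettl3 knockout, from a mean of 22.9 to 46.5 FPKM. Nacc2 fell from 6.40 and 5.77 to 1.80 and 2.03 FPKM in the Nudt21 set and rose from 5.16 to 16.4 in the Mettl3 set. Tstd1 fell from 2.64 and 3.08 to 1.20 and 1.07 FPKM and rose from 2.20 to 12.3. Ube2l6, the ISG15 conjugating enzyme, rose in both, from 1.45 and 1.76 to 5.22 and 4.09 FPKM here and from 0.857 to 21.7 there, though its call in the Nudt21 set was lost without any of the 4 libraries (limma adjusted p of 0.0666 to 0.108).

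**Figure D5:**
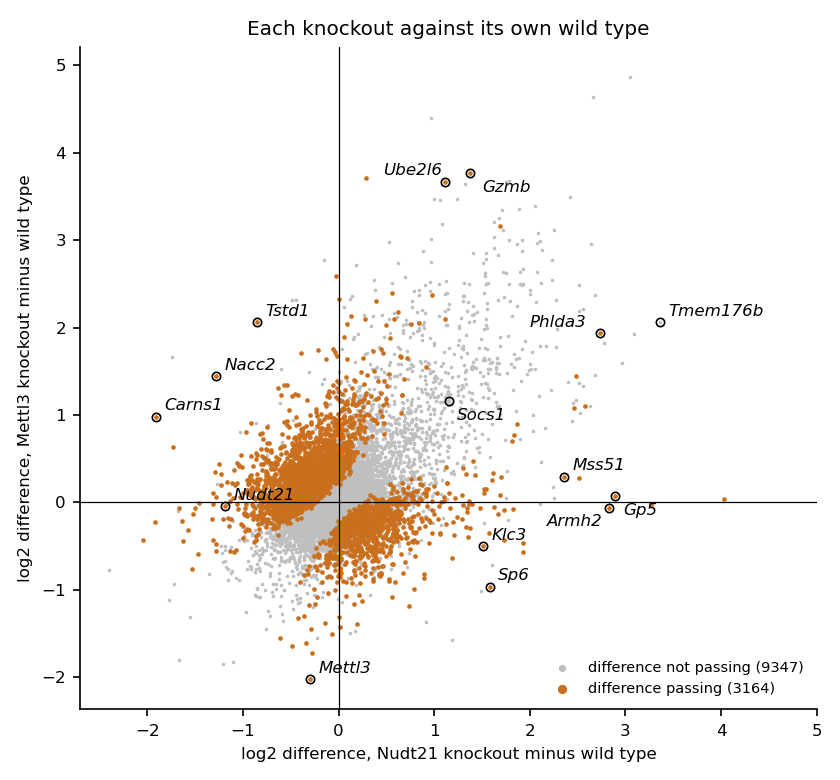
Log2 difference of each of 12511 genes in the Nudt21 knockout (horizontal axis) and the Mettl3 knockout (vertical axis), each against its own wild type, with the 3164 genes whose difference between knockouts passed in orange. Gp5, Armh2 and Mss51 lie near 0 on the Mettl3 axis, Carns1, Nacc2 and Tstd1 have opposite signs, and Socs1 and Phlda3 are higher in both.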

How the data were processed

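RNA was extracted with Trizol and made into paired-end NEBNext Ultra libraries, per the labels' protocols. The deposited table gives FPKM per gene, computed by the authors. Bowtie and the mm10 build appear, with no role given, per the submitters' processing notes. The FPKM tool, annotation and strand use are not given in the sources used here. The files hold no counts and whole reads could not be recovered, so depth is unknown.

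Genes that reached 1 FPKM in 2 or more libraries were fitted as log2(FPKM + 1) with limma 3.58.1 in R 4.3.3, with a mean-variance trend, 5 groups and 7 residual degrees of freedom. The fit was tested on simulated data with 200 changed genes. It recovered 95% of log2 changes of 1 and 100% of those of 2. Of its calls, 8.02% were false, more than the threshold of 0.05 aims at. The simulated spread was independent between libraries, so it does not show how the fit handles libraries that differ in blood cells or sex. The labels do not state separate animals, so p-values measure only the spread between libraries, which may be technical.

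Genes were named as the 12 largest rises and falls that passed, did not overlap and reached a mean of 2 FPKM, leaving out predicted genes (Gm, Rik and clone names), pseudogenes and antigen receptor segments, up to 4 passing members of each list, the 5 largest differences between knockouts in each direction, and genes switched on from silence. Members and lists were chosen with earlier results of these data known, and the 3′ UTR, neighbour and promoter descriptions after values were seen. Gene positions and 3′ UTRs are from GENCODE M21 (mm10), which matched 32158 of 32285 gene IDs, and promoters from RefSeq on GRCm38.p6. Alternatives were other pseudocounts, filters, scalings, sample sets, weights, a replicate block, a term for male libraries, a GC and length correction and leaving out each library. A few genes are not reported here.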

Additional observations from a re-analysis of the deposited data

Results flagged for a closer look

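For 10 genes the log2 difference in the Nudt21 knockout differed from that in the Mettl3 knockout by a test of the difference itself (limma adjusted p over all genes tested).

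The platelet glycoprotein gene Gp5 had a difference between the knockouts of 2.82 on the log2 scale (limma adjusted p = 0.000131). Armh2 had 2.89 (2.07e-05), Sp6 2.54 (0.0016), Mss51 2.07 (0.000169) and Klc3 2.01 (0.000131), all toward higher in the Nudt21 knockout.

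Carns1, the carnosine synthase gene, had a difference of -2.89 (limma adjusted p = 0.000346). Tstd1 had -2.91 (7.16e-05), Nacc2 -2.73 (0.000634) and Ube2l6 -2.55 (0.00266), all toward lower in the Nudt21 knockout. Gzmb, a granule protease of cytotoxic cells, had -2.39 (limma adjusted p = 0.0414). Gzmb and Ube2l6 were above wild type in both knockouts, with log2 differences of 1.37 and 1.12 in Nudt21 and 3.77 and 3.67 in Mettl3. The summed FPKM of CD8 T and NK cell markers was 67.3 and 266 in the 2 Mettl3 knockout libraries, and the part of those cells was not tested.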

How the results depend on the processing

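Of 109 named genes that passed, 59 kept the call under every alternative run. The number of genes that passed was 5540 with library weights and 1338 to 4741 when 1 library was left out. The genes higher numbered 2077 with library weights, 1983 in the Nudt21 set alone, 1897 without the Mettl3 knockout libraries and 374 to 1895 with 1 library left out. The genes lower numbered 1576 under median-ratio scaling and 962 to 2847 with 1 library left out. Genes higher at least 2-fold numbered 255 and 65 with pseudocounts of 0.1 and 5 FPKM, 339 with library weights, 365 in the set alone, 366 without the Mettl3 knockout libraries and 104 to 366 with 1 library left out, and genes lower at least 2-fold 284 and 10 with those pseudocounts. The difference between knockouts passed for 2035 genes with library weights and 1745 to 4404 with 1 library left out, and the Mettl3 comparison for 1094 with library weights. Mtor, which did not pass, turned sign to 0.0257 under median-ratio and 0.0254 under quantile scaling and ran from -0.1262 to 0.0096 with 1 library left out, and Pecam1 turned to 0.0075 under median-ratio scaling. Leaving out a Nudt21 library leaves that group with 1 sample, assumed to vary like the other groups. The cause of the other shifts was not tested.

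With the replicate number as a block 2638 genes passed, but the numbers were not taken to pair the samples: in the Nudt21 set the deviations of same-numbered libraries correlated at -0.12, and the labels tie no number to an animal. In the Mettl3 set these correlations were 0.03 to 0.32, and there the number moves with sex, since the libraries numbered 3 are male. A term for male libraries, chosen after seeing the data, gave 3576 genes. A crossed block, chosen after seeing the data, gave 2952 genes. With no counts, the limit that depth sets cannot be given.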
